A study of Mus musculus with 18 samples.

Results

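Day 7 embryoid bodies grown from Pax7-/- mouse embryonic stem cells, which lack functional Pax7, were compared with Pax7+/+ ones, with 3 arrays per genotype, or 6 of the 18 arrays of the study. The arrays were chosen by genotype and day in their titles. All cells are labelled as strain F1 (C57Bl6N x 129Sv). Day 0 arrays hold undifferentiated stem cells kept with LIF, and day 21 arrays hold embryoid body outgrowths. The day 7 and day 21 cultures of both genotypes lacked LIF and received the supplements labelled RA and ITS. The labels call the 3 arrays of a group biological replicates, without saying whether they are separate clones or separate cultures of 1 line. Each p-value thus rests on the spread between arrays of a group, estimated per gene over all 18 arrays of the study. The Pax7 allele is not described in the labels.

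Pax7 is a transcription factor with a paired domain and a homeodomain. It is known for marking and maintaining the satellite cells of skeletal muscle and for roles in neural crest and dorsal neural tube. Embryoid bodies are aggregates in which stem cells leave pluripotency after LIF is withdrawn and form cells of the germ layers and of extraembryonic endoderm in a disordered way. Bulk RNA of such aggregates mixes all of these cells, so fewer cells of a type and less RNA per cell cannot be told apart.

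Each value is a log2 intensity of a probe set, and 1 probe set per gene was used, which gave 22180 genes. The arrays form 2 sets by the spread of their values, named narrow and wide here. At day 7, replicate 1 of Pax7+/+ and replicates 1 and 3 of Pax7-/- are narrow, and replicates 2 and 3 of Pax7+/+ and replicate 2 of Pax7-/- are wide. Differences between genotypes, always Pax7-/- minus Pax7+/+, come from a limma model with the array set as a covariate. A gene was called at a Benjamini-Hochberg adjusted p under 0.05 over all 22180 genes. Because the set's shift was estimated over all 18 arrays, a fitted difference need not lie between the differences read within the narrow and within the wide arrays.

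The label of the cells was checked against markers. From day 0 to day 7 in Pax7+/+, the median change of naive pluripotency genes was -0.61 log2 on narrow and -0.56 log2 on wide arrays, and 7 of 25 were lower by more than 1 log2 in each set. Visceral endoderm and fetal liver genes had a median change of 1.6 log2 on wide arrays, with 16 of 23 above 1 log2, but 0.17 log2 on narrow ones, with 2 above 1 log2. Nanog, a core pluripotency factor, still read 8.76 (narrow), 9.74 and 9.84 (wide) in Pax7+/+ at day 7. The alpha-fetoprotein gene Afp, a visceral endoderm product, read 6.61 (narrow), 7.19 and 8.24 (wide) there, against 5.59 to 5.66 (narrow) and 4.48 (wide) at day 0. Sarcomere genes of skeletal muscle had median changes of -0.04 and 0.00 log2 on narrow and wide arrays, with none above 1 log2. Cardiac muscle genes had medians of 0.11 and 0.15 log2, with 1 and 4 of 22 above 1 log2.

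The probe set of Pax7 (17431910, chr4:139737059-139833530 on GRCm38.p6) read 6.35 on the narrow and 4.68 and 5.09 on the wide Pax7+/+ arrays. In Pax7-/- it read 6.32 and 5.86 on narrow and 4.99 on wide arrays. The genotypes overlapped on the wide arrays but not on the narrow ones, where both Pax7-/- arrays were lower, and the fitted difference was -0.01 ± 0.24 log2 (SE, n = 3 arrays per genotype). Since the allele is not described, the probes may lie outside it, and this reading checks no label.

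Between the genotypes, 139 genes were called at day 7 (0.627% of those tested), 71 of them higher in Pax7-/- (0.32%) and 68 lower (0.307%). At 2-fold or more, 15 were higher and 22 lower. Single genes of contractile and mesenchymal cells, imprinted genes and stress-response genes were among the higher ones. Single genes of epithelia, of pluripotent and 2-cell-like cells, of lipid synthesis and of lysosomes were among the lower ones. All 139 had the same sign within the narrow and within the wide arrays, as 56.5% of all genes did and as the test favours. The genotypes also did not overlap within either set, in the same direction, for all 139 and for 7117 of all genes (32.1%). The test favours this too. Without the array set in the model no gene was called at an adjusted p under 0.05, with 278 at an unadjusted p under 0.05, against 2209 with it. Leaving out single arrays gave 242 calls when Pax7+/+ replicate 1 was dropped, 21 and 25 for replicates 2 and 3 of that genotype, and 37, 46 and 26 for Pax7-/- replicates 1, 2 and 3. Of the 41 called genes named by rule, 33, 12, 13, 14, 18 and 12 stayed called in these fits, in the same order. All 41 kept their direction in each, and 10 of them kept their call in all 6: Rian, Cdh11, Mmp2, Pramel20, Snora73b, Igf2r, Plet1, Cldn4, Cdc5l and Hexa. Another 8 lost their call whichever array was left out: S1pr3, Scd1, Sall4, Csrp1, Atf3, Egr1, Srebf2 and Ctsa. Of the rest, Ccn1 and Tmem92 kept their call in 5 of the 6 fits and Gjb5 in 3. The call held in 2 fits for 9 genes: Mest, Myl9, Herpud1, Txnip, Peg3, Atp5h, Mir669i, Fbxo15 and Ccn2. It held in 1 fit for 11 genes: Rpl3, Adam23, Mir669k, Zfp352, Aqp3, Scd3, Bmper, Cnn1, Snai2, Xbp1 and Rrm2.

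**Figure D1:**
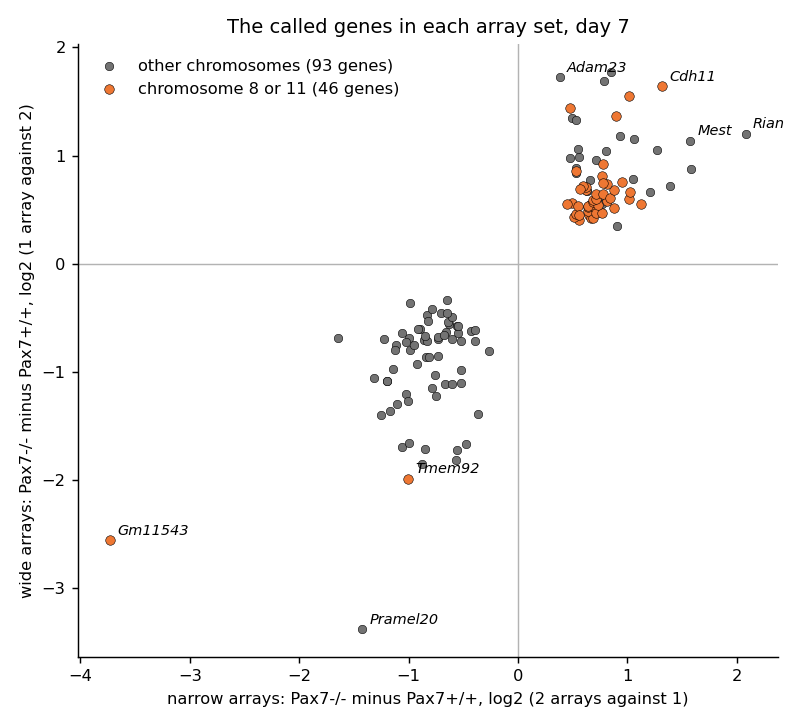
Difference between genotypes at day 7 (log2) within the narrow arrays (x axis) and within the wide arrays (y axis) for the 139 called genes. Each point is a gene, orange where it lies on chromosome 8 or 11. All points have the same sign on both axes, and most orange points form a compact group of rises under 1 log2, apart from Gm11543 and Tmem92 among the falls.

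The called genes were not spread evenly over the genome. Chromosomes 8 and 11 hold 2685 of the genes tested (12.1%) but 44 of the 71 genes called higher, 14 on chromosome 8 and 30 on chromosome 11, and 2 of the 68 called lower. Elsewhere 27 genes were called higher and 66 lower. The rises on chromosomes 8 and 11 were mostly modest: 40 of the 44 were under 2-fold, with a median of 0.68 log2, against 0.98 log2 for the 27 rises elsewhere. The shift was not limited to the called genes. Among genes above the 75th percentile of mean signal, the median difference was 0.24 log2 over 364 genes of chromosome 8 and 0.27 log2 over 510 genes of chromosome 11, with 81.9% and 85.1% of them above 0. Over all 5545 of these genes the median was 0.00 log2, and 49.2% were above 0.

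The same shift was present in each Pax7-/- array. Relative to the narrow Pax7+/+ array, chromosome 8 had median differences of 0.15 and 0.23 log2 in Pax7-/- replicates 1 and 3, and chromosome 11 had 0.19 and 0.25 log2. Relative to the mean of the wide Pax7+/+ arrays, Pax7-/- replicate 2 had 0.29 log2 on both chromosomes. The other chromosomes had medians between -0.10 and 0.04 log2 in these 3 arrays. Between the wide Pax7+/+ arrays themselves, the medians were -0.02 log2 on chromosome 8 and -0.01 log2 on chromosome 11. At day 0 the corresponding medians of the genotype difference were 0.15 and 0.16 log2, and at day 21 they were 0.36 and 0.35 log2, against -0.05 and 0.11 log2 over all 5545 genes at these days.

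**Figure D2:**
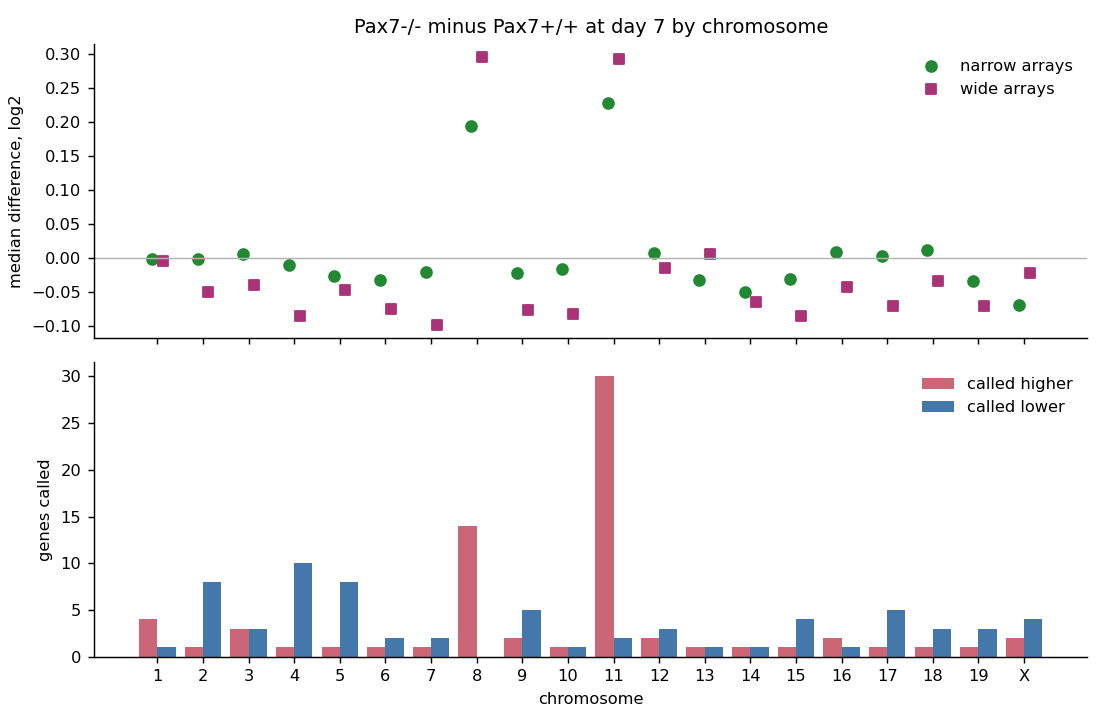
Upper panel: median difference between genotypes at day 7 (log2) over the genes of each chromosome above the 75th percentile of mean signal, within the narrow arrays (circles) and the wide arrays (squares). Lower panel: number of genes called higher or lower per chromosome. Chromosomes 8 and 11 stand at 0.19 to 0.29 log2 in both sets and hold 44 of the 71 genes called higher.

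Of 3 Y-linked genes looked at, 2 had values that did not overlap between the genotypes within either array set at any of the 3 days. None of the 17 genes tested on the Y chromosome was called at day 7. On wide arrays Eif2s3y, a Y-linked translation factor gene, read 3.37 to 3.86 in the 4 Pax7+/+ arrays and 7.09 to 7.69 in the 4 Pax7-/- arrays. Uty, a Y-linked histone demethylase gene, read 3.13 to 3.47 and 6.86 to 7.02 on the same arrays. On narrow arrays the ranges also did not overlap but lay closer together, with Eif2s3y at 4.0 to 4.40 and 4.48 to 4.88 and Uty at 3.42 to 3.74 and 3.81 to 4.0. Kdm5d, a further Y-linked demethylase gene, overlapped on the narrow arrays of all days together. On wide arrays it read 3.30 to 3.40 in Pax7+/+ and 3.67 in Pax7-/- at day 7, and 3.41 and 4.6 to 5.16 at day 21. These differences in Y-linked RNA and on chromosomes 8 and 11 cannot be told apart from the genotype in this design. With the genes of chromosomes 8 and 11 left out of the fit, 78 genes were called, 22 higher and 56 lower, all among the 139. With each array's values centred per chromosome, 89 were called, 36 higher and 53 lower. Of these, 71 were among the 139, and 3 of the rises were on chromosomes 8 or 11. Of the named genes, Atp5h, Xbp1, Zfp352, Cnn1, Csrp1, Snai2, Egr1 and Srebf2 lost their call with this centring. Both alternatives were chosen after the chromosome pattern was seen.

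Contractile and mesenchymal genes were among the largest rises. Myl9 encodes a regulatory light chain of smooth muscle and nonmuscle myosin. In Pax7+/+ it read 6.29 on the narrow and 6.77 and 6.54 on the wide arrays, and in Pax7-/- 7.55 and 7.57 on narrow and 7.71 on wide arrays. All 3 Pax7-/- arrays lay above all 3 Pax7+/+ arrays, whatever their set. The fitted difference was 1.33 ± 0.22 log2 (adjusted p = 0.0125), or 2.52-fold. Cnn1, the calponin of smooth muscle thin filaments, was higher by 0.81 ± 0.17 log2 (adjusted p = 0.0391): it read 5.38 narrow, 5.39 and 5.16 wide in Pax7+/+ and 5.94 and 5.77 narrow and 6.25 wide in Pax7-/-. Csrp1, a LIM protein of the actin cytoskeleton, fell by 0.78 log2 (SE 0.15, adjusted p = 0.0309). Of 18 measured smooth muscle and actin genes, 2 were called higher and 1 lower, with a median difference of 0.21 log2. Skeletal muscle sarcomere genes (25 measured), myogenic regulators (17), cardiac muscle genes (22) and paraxial mesoderm and somite genes (20) had no gene called, with medians of 0.04, -0.04, 0.12 and -0.04 log2, against -0.01 log2 over all genes. The smallest p among the myogenic regulators belonged to Mef2a (0.53 ± 0.12 log2, adjusted p = 0.0577).

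Cdh11, a cadherin of mesenchymal cells on chromosome 8 (chr8:102632095-102785493), read 6.47 narrow and 7.93 and 7.96 wide in Pax7+/+, and 7.90 and 7.67 narrow and 9.59 wide in Pax7-/-. Within each set every Pax7-/- array was above every Pax7+/+ array by more than 1 log2, and the fitted difference was 1.58 ± 0.17 log2 (adjusted p = 0.0022). With values centred per chromosome it was 1.36 log2 (adjusted p = 0.00614). Mmp2, a secreted gelatinase that degrades matrix, also on chromosome 8, read 6.24 narrow and 7.66 on both wide Pax7+/+ arrays. In Pax7-/- it read 6.89 and 7.39 narrow and 9.03 wide. It was higher by 1.2 ± 0.17 log2, and by 0.97 log2 (adjusted p = 0.0335) after centring per chromosome. Snai2, a zinc finger repressor of epithelial genes, was higher by 0.99 ± 0.21 log2 (adjusted p = 0.0477). Adam23, a membrane protein of the disintegrin family, was higher by 1.17 ± 0.24 log2, with unequal differences of 0.38 log2 on narrow and 1.72 log2 on wide arrays.

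The mesenchymal list (18 measured) had 2 genes called higher, none lower and 16 estimates above 0, with a median of 0.29 log2. Over all 22180 genes, 10831 estimates were above 0 and 11349 below. Such counts were not tested, here or for other lists. Collagens and small proteoglycans (27 measured) had none called and 22 estimates above 0, with a median of 0.31 log2. There the smallest p belonged to Tnc, a matrix glycoprotein of embryonic mesenchyme: it read 5.71 narrow and 7.08 on both wide arrays in Pax7+/+, and 6.92 and 6.64 narrow and 8.49 wide in Pax7-/-. No array of one genotype overlapped the other within a set, as was so for 32.1% of all genes. The difference of 1.31 ± 0.32 log2 did not pass (adjusted p = 0.0769). The matrix metalloproteinase list (21 measured) had Mmp2 and Adam23 called higher and a median of 0.10 log2.

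Targets of serum response factor and of the coactivator YAP were represented by a pair of matricellular genes. Ccn1 read 7.16 narrow and 9.48 and 9.47 wide in Pax7+/+, and 8.43 and 9.05 narrow and 10.34 wide in Pax7-/-. Its difference was 1.21 ± 0.20 log2 (adjusted p = 0.0127), a call lost only without Pax7-/- replicate 3 among the fits without 1 array. Ccn2 was higher by 0.70 ± 0.12 log2 (adjusted p = 0.0137), on a range of 8.10 to 9.18 in Pax7+/+ and 8.84 to 9.68 in Pax7-/-. Of 15 measured targets these 2 were called higher, none was lower, and the median was 0.28 log2. In the immediate early and stress list (21 measured), Atf3 and Egr1, transcription factor genes induced quickly by stress and growth signals, were higher by 0.71 ± 0.14 and 0.61 ± 0.13 log2. No other member was called, 18 estimates were above 0 and the median was 0.33 log2. Egr1 lost its call with values centred per chromosome (adjusted p = 0.0639), and both genes lost theirs in every fit without 1 array.

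S1pr3, a receptor for sphingosine 1-phosphate, was higher by 1.03 ± 0.20 log2 (adjusted p = 0.0308). It read 5.48 narrow, 6.88 and 6.97 wide in Pax7+/+ and 6.44 and 6.39 narrow and 8.10 wide in Pax7-/-. Txnip, an inhibitor of thioredoxin and of glucose uptake, was higher by 1.11 ± 0.18 log2 (adjusted p = 0.0127). The groups of both genes were apart within each set, as for 32.1% of all genes. S1pr3 lost its call whichever array was left out.

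Herpud1 and Xbp1 belong to the response to unfolded protein in the endoplasmic reticulum. Herpud1, which takes part in the degradation of misfolded proteins, read 6.64 narrow and 7.70 and 7.77 wide in Pax7+/+ and 7.55 and 7.75 narrow and 9.28 wide in Pax7-/-. The difference of 1.29 ± 0.21 log2 came to 1.06 log2 (adjusted p = 0.0336) after centring per chromosome, since Herpud1 lies on chromosome 8. Xbp1, a transcription factor of that response on chromosome 11, was higher by 0.52 ± 0.10 log2 (adjusted p = 0.034). After centring per chromosome its difference was 0.26 log2 (adjusted p = 0.42), and it was not called. The list as a whole (27 measured) had these 2 genes called and a median of 0.12 log2.

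Rpl3, a protein of the large ribosomal subunit, was higher by 1.23 ± 0.23 log2 (adjusted p = 0.0273) with the probe set used. Its other 2 probe sets gave -0.38 ± 0.11 and -0.09 ± 0.20 log2, so its probe sets disagree and no direction is given for the gene. The probe sets of Atp5h, a subunit gene of ATP synthase, gave 1.01 ± 0.19 and 0.43 ± 0.30 log2, and those of Ccn2 gave 0.70 ± 0.12 and 0.07 ± 0.17 log2. The 34 measured cytosolic ribosomal protein genes had no other gene called and a median of -0.07 log2.

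**Figure D3:**
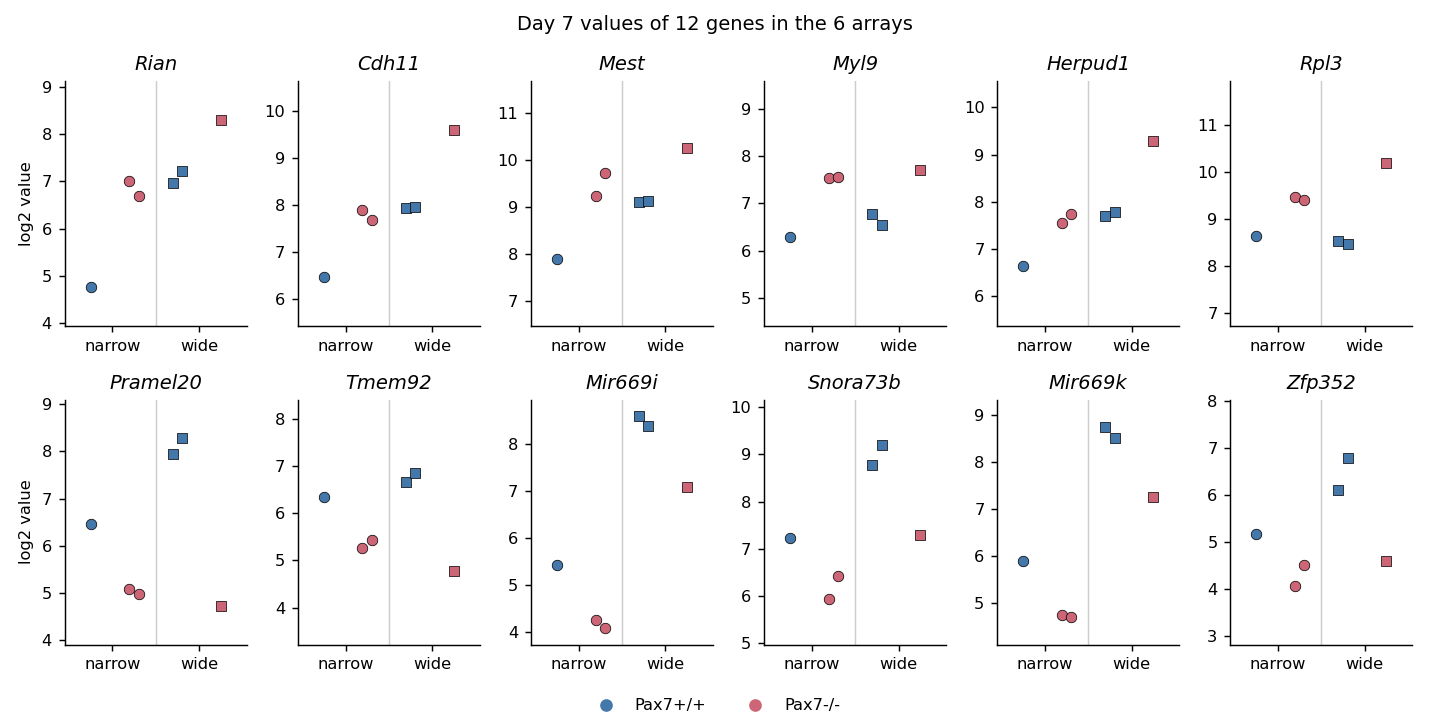
Log2 values of 12 genes on the 6 day 7 arrays, with narrow arrays (circles) left and wide arrays (squares) right of the line, Pax7+/+ in blue and Pax7-/- in red. The panels show the 6 largest rises and 6 largest falls among the genes named by rule, each panel spanning 5.2 log2 units. In all 12 the genotypes do not overlap within either set, as in all 139 called genes and in 32.1% of all genes tested. The wide Pax7+/+ arrays of Cdh11 reach the level of the narrow Pax7-/- arrays.

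Imprinted genes, which are expressed from 1 parental allele, moved in both directions. Mest, a paternally expressed gene of embryonic mesoderm, read 7.90 narrow and 9.10 and 9.12 wide in Pax7+/+, and 9.23 and 9.72 narrow and 10.25 wide in Pax7-/-. It was higher by 1.43 ± 0.26 log2 (adjusted p = 0.0236). Peg3, a paternally expressed zinc finger gene, was higher by 1.04 ± 0.18 log2. Of 21 measured paternally expressed genes these 2 were called, with a median of 0.18 log2 over the list. Igf2r, the maternally expressed receptor that clears insulin-like growth factor II, read 7.00 narrow and 8.86 and 8.82 wide in Pax7+/+. In Pax7-/- it read 6.11 and 5.91 narrow and 7.18 wide, and it fell by 1.28 log2 (SE 0.19, adjusted p = 0.00709). Of 20 measured maternally expressed genes, Igf2r was called lower and Rian higher, with a median of -0.10 log2. The imprinted gene Sfmbt2, described below, was also called lower but was in neither of these lists, so the counts leave it out.

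Rian is a noncoding RNA of the Dlk1 to Dio3 imprinted region on chromosome 12, where the maternal allele gives rise to noncoding RNAs, small nucleolar RNAs and a large group of miRNAs. In Pax7+/+ it read 4.76 narrow and 6.97 and 7.22 wide, and in Pax7-/- 7.01 and 6.68 narrow and 8.30 wide, a difference of 1.69 ± 0.25 log2 (adjusted p = 0.00725). The region was looked at as a whole after this value was seen, so its counts are descriptions. Between Dlk1 and Dio3 (chr12:109452485-110281097), 54 genes were measured, 43 of them miRNA genes and 5 small nucleolar RNA genes. Estimates were above 0 for 52 of them, with a median of 0.61 log2. Rian and the small nucleolar RNA DQ267102 (1.15 ± 0.19 log2, adjusted p = 0.0127) were called higher.

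Most of this came from the wide arrays, where the median was 1.06 log2, against 0.10 log2 on the narrow ones. Mir382, for example, read 4.67 narrow and 5.37 and 5.63 wide in Pax7+/+, and 5.45 and 5.30 narrow and 7.44 wide in Pax7-/-, with a difference of 1.25 ± 0.28 log2 (adjusted p = 0.0645). Mir380 read 3.20 narrow and 3.91 and 3.97 wide in Pax7+/+ and 3.26 and 3.17 narrow and 6.39 wide in Pax7-/-. Its rise was thus carried by 1 wide array, Pax7-/- replicate 2. The protein-coding genes at the ends of the region, Dlk1 and Dio3, were not called, with Dlk1 at 0.37 ± 0.46 and Dio3 at -0.03 ± 0.12 log2. The medians over the region were 0.08 log2 at day 0 and 0.34 log2 at day 21.

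The mature sequences of the 4 miRNA genes of this region with the smallest p are shown as examples of the miRNAs encoded there, although none of the 4 genes was called. They come from RefSeq on GRCm38.p6, and capitals mark the seed (bases 2 to 8). No 2 of the seeds are the same. The arrays measured total RNA with probe sets for these genes and do not tell a mature miRNA from its precursor.
miR-453: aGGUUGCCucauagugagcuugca
miR-382-5p: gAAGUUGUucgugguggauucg
miR-382-3p: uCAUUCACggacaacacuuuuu
miR-667-5p: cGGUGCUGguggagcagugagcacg
miR-667-3p: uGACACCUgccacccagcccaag
miR-541-5p: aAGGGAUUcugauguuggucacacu
miR-541-3p: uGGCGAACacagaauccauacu
The values behind these were 0.93 ± 0.21 log2 for Mir453, 1.25 ± 0.28 for Mir382, 0.88 ± 0.21 for Mir667 and 0.73 ± 0.20 for Mir541, all with adjusted p above 0.05.

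An opposite pattern lay inside Sfmbt2 (chr2:10370440-10595253), an imprinted Polycomb group gene with a large miRNA cluster in an intron. Sfmbt2 read 6.05 narrow and 8.52 and 8.42 wide in Pax7+/+, and 5.16 and 5.26 narrow and 7.61 wide in Pax7-/-. It was called lower, by -0.97 ± 0.17 log2 (adjusted p = 0.0149). Of the 22 miRNA genes measured inside it, all 22 had estimates below 0, with a median of -0.80 log2, -0.32 log2 on narrow and -1.05 log2 on wide arrays. Mir669i (-1.55 ± 0.28), Mir669k (-1.42 ± 0.28), Mir669a-3 (-1.12 ± 0.24) and Mir466n (-0.95 ± 0.19) were called lower. Mir669i read 5.43 narrow and 8.58 and 8.37 wide in Pax7+/+ and 4.26 and 4.10 narrow and 7.07 wide in Pax7-/-. The cluster holds near-identical copies, so the probe sets may read each other's transcripts and their values are not independent. This group too was picked after its values were seen. At day 0 the median was 0.09 log2 and at day 21 it was -0.53 log2.

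**Figure D4:**
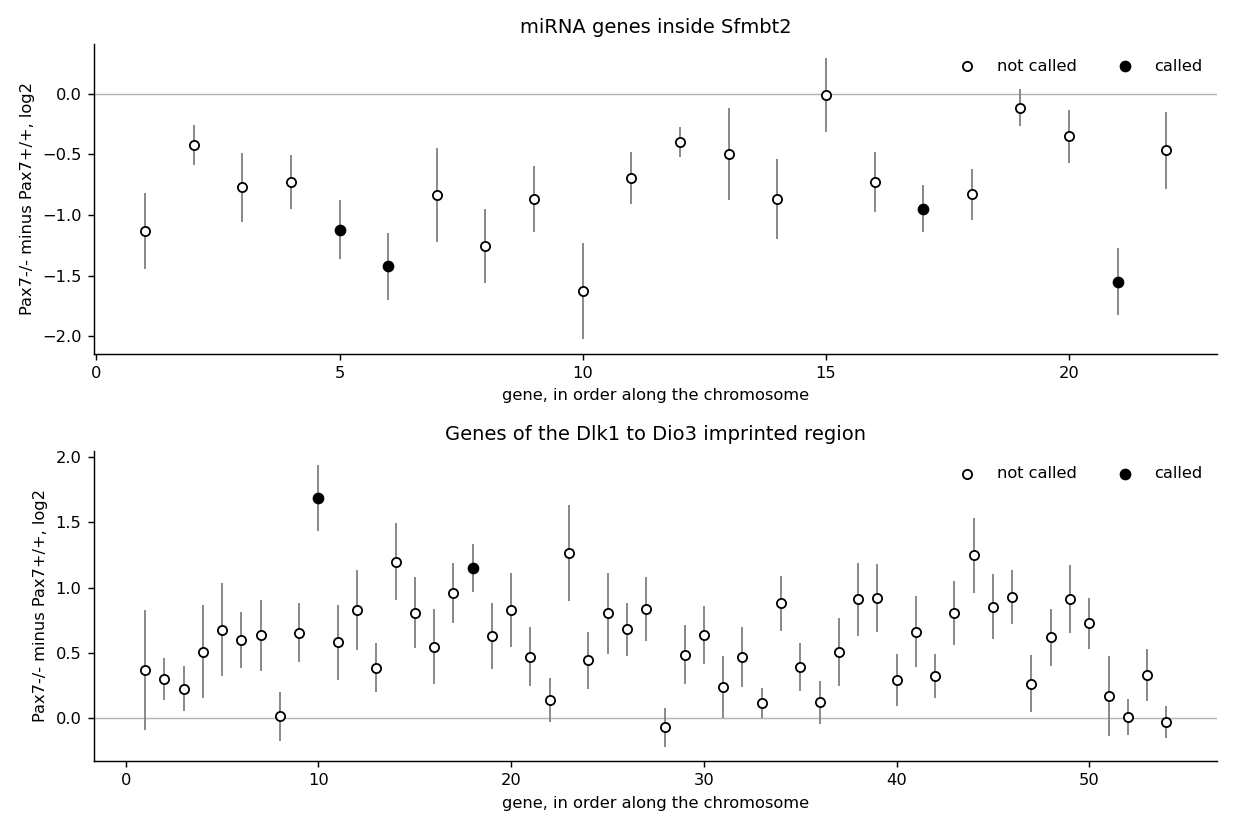
Difference between genotypes at day 7 (log2) for the 22 miRNA genes inside Sfmbt2 (upper panel) and the 54 genes of the Dlk1 to Dio3 region (lower panel), in their order along the chromosome. Points are fitted differences, bars are 1 SE, and filled points are called genes. All 22 upper points lie below 0 and 52 of the 54 lower points lie above 0.

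A further called miRNA gene, Mir5125 on chromosome 17, was lower by -0.71 ± 0.14 log2 (adjusted p = 0.0334). Its mature sequence is given because it is the 1 called miRNA gene of the 5 with a RefSeq sequence here, seed in capitals.
miR-5125: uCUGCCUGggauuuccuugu
It read 7.66 narrow and 8.98 and 8.69 wide in Pax7+/+, and 6.55 and 6.79 narrow and 8.47 wide in Pax7-/-.

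Of the genes named by rule, Pramel20, of the Prame-like family, and Tmem92 had the largest falls. Pramel20 read 6.45 narrow and 7.94 and 8.28 wide in Pax7+/+. In Pax7-/- it read 5.08 and 4.98 narrow and 4.73 wide, so the wide Pax7-/- array lay over 3 log2 below the wide Pax7+/+ arrays. The fitted difference was -2.63 ± 0.38 log2 (adjusted p = 0.0065), or 6.21-fold. Tmem92, a small membrane protein gene, read 6.35 narrow and 6.68 and 6.86 wide in Pax7+/+ and 5.26 and 5.43 narrow and 4.78 wide in Pax7-/-. Its difference was -1.56 ± 0.23 log2, a call lost only without Pax7-/- replicate 2 among the fits without 1 array. Zfp352, a zinc finger gene of 2-cell embryos and of the 2-cell-like cells that appear in stem cell cultures, was lower by -1.41 ± 0.30 log2 (adjusted p = 0.0477), a call lost with centring per chromosome (adjusted p = 0.0627).

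In the 2-cell-like list (17 measured) Zfp352 was the gene called. All 17 estimates were below 0, with a median of -0.87 log2, but the median was -0.06 log2 on narrow and -1.36 log2 on wide arrays. Of the 21 Prame-like genes measured on chromosome 4, a group formed after its values were seen, 17 had estimates below 0, and Pramel20 and Pramel21 (-0.89 ± 0.17 log2) were called. Next to Tmem92 on chromosome 11 lie Gm11546, AA623943 and Gm11543 (chr11:94777217-94831986 in all), which were chosen for description after their values were seen. Gm11543 read 7.59 narrow and 9.47 and 9.64 wide in Pax7+/+, and 3.74 and 3.98 narrow and 7.00 wide in Pax7-/-, a difference of -3.52 ± 0.65 log2 (adjusted p = 0.0252). Gm11546 and AA623943 had differences of -2.75 ± 0.66 and -1.60 ± 0.53 log2 that did not pass. All 4 genes had estimates below 0, while the median of chromosome 11 was above 0. The median of these 4 genes was 1.47 log2 at day 0 and -0.42 log2 at day 21, with none of them called at either day.

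Naive pluripotency genes had 2 of 25 measured members called, both lower. Fbxo15, an F-box gene of stem cells, read 6.38 narrow and 9.0 and 8.72 wide in Pax7+/+ and 5.43 and 5.67 narrow and 8.15 wide in Pax7-/-, a difference of -0.78 ± 0.13 log2 (adjusted p = 0.0137). Sall4, a zinc finger factor that sustains pluripotency, was lower by -0.56 ± 0.11 log2, with its second, dimmer probe set at 0.14 ± 0.20 log2. Estimates were below 0 for 23 of the 25, with a median of -0.41 log2. Nanog read 6.67 and 7.72 narrow and 9.04 wide in Pax7-/-, each below the Pax7+/+ values of the same set given above. Its difference of -1.25 ± 0.33 log2 did not pass (adjusted p = 0.109). Primed epiblast genes (13 measured) had none called and a median of 0.04 log2.

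Single genes of epithelia and trophoblast were also called lower. Cldn4, a tight junction claudin, read 7.40 narrow and 8.49 and 8.64 wide in Pax7+/+ and 6.28 and 6.13 narrow and 7.48 wide in Pax7-/-. Its difference, -1.17 ± 0.16 log2 (adjusted p = 0.0065), was close to the same within the narrow arrays (-1.2) and the wide arrays (-1.08). Plet1, a surface protein gene of trophoblast progenitors and other epithelia, read 8.04 narrow and 9.47 and 9.29 wide in Pax7+/+ and 6.98 and 6.89 narrow and 8.08 wide in Pax7-/-. It was lower by -1.21 ± 0.17 log2. Gjb5, a connexin of skin and placenta, and Aqp3, a channel for water and glycerol, were lower by -1.22 ± 0.20 and -1.34 ± 0.26 log2. Each of these was the 1 gene called in its list: epithelial junctions (31 measured, median -0.13 log2), trophoblast (19, -0.43 log2), connexins (10, -0.08 log2), and keratins and aquaporins (13, -0.24 log2). The fall of the trophoblast list was larger on wide arrays (-0.72 log2) than on narrow ones (-0.11 log2), a difference that was not tested. Parietal endoderm (16 measured) and visceral endoderm and fetal liver genes (23) had none called, with medians of 0.02 and -0.03 log2. Within the array sets the visceral endoderm medians were of the other sign, 0.14 log2 on narrow and 0.28 log2 on wide arrays. Afp read 7.77 and 7.74 narrow and 9.63 wide in Pax7-/-, above the Pax7+/+ arrays of the same set, with a difference of 1.29 ± 0.63 log2 that did not pass (adjusted p = 0.528). The part that shares of these cell types had in the falls was not tested.

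Of the lipid metabolism genes, 2 desaturases and 1 regulator were called lower, and none of these calls held in every fit without 1 array. Scd1 and Scd3 encode desaturases that introduce the double bond of monounsaturated fatty acids. Scd1 read 7.05 narrow and 9.31 and 9.04 wide in Pax7+/+ and 5.57 and 5.88 narrow and 8.12 wide in Pax7-/-, a difference of -1.28 ± 0.28 log2 (adjusted p = 0.0477). Scd3 was lower by -1.18 ± 0.23 log2, and no other of the 21 fatty acid genes was called. Srebf2, the transcription factor that drives cholesterol synthesis, fell by 0.67 log2 (SE 0.13, adjusted p = 0.0309). It was the 1 called gene of 16 in the cholesterol list, where 15 estimates were below 0 and the median was -0.44 log2. Scd1 and Srebf2 lost their call whichever array was left out, and Scd3 in all but 1 of these fits. In the lysosome list (20 measured), Ctsa and Hexa, hydrolase genes of the lysosome, were lower by -0.76 ± 0.14 and -0.68 ± 0.10 log2, with a median of -0.21 log2. Hexa read 6.26 narrow and 8.92 and 9.06 wide in Pax7+/+ and 5.51 and 5.55 narrow and 8.31 wide in Pax7-/-.

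Among single genes, Rrm2, a subunit of the ribonucleotide reductase that supplies DNA precursors, was lower by -0.83 ± 0.14 log2 (adjusted p = 0.0137). Its second, dimmer probe set gave -0.20 ± 0.11 log2, and its call held in 1 of the 6 fits without 1 array. No other of 25 DNA replication genes and none of 25 mitosis genes was called, with medians of -0.09 and -0.19 log2. Bmper, which binds bone morphogenetic proteins outside the cell, was lower by -1.16 ± 0.23 log2, the 1 call among 24 genes of the BMP and TGF-beta pathway. Snora73b, a small nucleolar RNA, read 7.24 narrow and 8.78 and 9.21 wide in Pax7+/+ and 5.92 and 6.42 narrow and 7.30 wide in Pax7-/-. Its difference was -1.43 ± 0.19 log2 (adjusted p = 0.0065). Cdc5l, a splicing factor gene, was lower by -1.14 ± 0.16 log2, and by -0.40 ± 0.22 log2 with its other probe set.

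Lists for neural progenitors (21 measured), neurons (20), Hox genes (18), retinoic acid handling (20), the Wnt pathway (26), hypoxia and glycolysis (21), p53 targets (22), the germ line (19), the interferon response (19), blood and endothelium (21) and the primitive streak (14) had no gene called. Their medians lay between -0.11 and 0.21 log2. Snai2 was the called gene of the 15 in the neural crest list, whose median was 0.06 log2. Igf2r was the called gene of the 17 IGF-binding protein and receptor genes, with a median of 0.14 log2. Among neuronal genes the smallest p belonged to Tubb3, a neuronal tubulin (0.56 ± 0.16 log2, adjusted p = 0.147). Among Hox genes, Hoxb1 and Hoxb9, both on chromosome 11, had differences of -0.88 ± 0.29 and 0.69 ± 0.24 log2 (adjusted p = 0.244 and 0.261).

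Promoters of called genes, from 250 bases before to 50 after the start in RefSeq, were searched on both strands for the CArG box bound by serum response factor, the homeodomain core TAATTA and the PAX paired domain core GTCACGC. The promoter table matched 49 of the 71 genes called higher and 48 of the 68 called lower. The CArG box was in 3 of the higher genes (Herpud1, Myl9 and Tlk2) and in none of the lower genes, against 1.81% of all 27025 genes with a promoter. TAATTA was in none of the higher genes and in 1 lower gene, Commd4, against 6.12% of all. GTCACGC was in none of the higher genes and in 3 lower genes (Cdc5l, Paics and Rpp25), against 2.43% of all. A match describes these letters in this window and is not a bound site. The stretches before the start of 1 gene per motif follow, with the motif in capitals, on GRCm38.p6.
Myl9 (CArG box, chr2:156775263-156775352, plus strand): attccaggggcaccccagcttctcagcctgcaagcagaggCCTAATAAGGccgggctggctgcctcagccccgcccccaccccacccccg
Commd4 (TAATTA, chr9:57158435-57158520, minus strand): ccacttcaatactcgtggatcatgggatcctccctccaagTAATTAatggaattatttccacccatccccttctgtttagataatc
Cdc5l (GTCACGC on the opposite strand, chr17:45433758-45433844, minus strand): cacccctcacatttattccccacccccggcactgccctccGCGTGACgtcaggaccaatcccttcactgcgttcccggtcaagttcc
The motif of Myl9, the largest contractile rise, ends 151 bases before the start site used for its promoter window. That site lies downstream of the first base of the gene's span (chr2:156775408).

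The day 7 differences were set beside those at days 0 and 21, which come from other arrays of the same fit and share its estimate of the array set. At day 0, 284 genes were called (1.28%), and at day 21, 1085 (4.89%). Of the 139 genes of day 7, 30 were also called at day 0, which is 21.6% of the day 7 genes and 10.6% of the day 0 genes: 20 in the same direction and 10 in the opposite one. With day 21 the overlap was 55 genes, or 39.6% of the day 7 and 5.07% of the day 21 genes, 44 in the same and 11 in the opposite direction. In the same direction at all 3 days were 9 genes: Aatf, Otud4, Pdpr, Usp22, Ctsa, Cyb5r3, Hexa, Mest and Snora73b. Of these, Aatf and Usp22 lie on chromosome 11 and Otud4 and Pdpr on chromosome 8. Mest, for example, was higher by 1.24 ± 0.26 log2 at day 0 and by 1.45 ± 0.26 log2 at day 21.

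The 10 genes with opposite calls at day 0 were Cask, Ccn1, Ccn2, Cdh11, Egr1, Fbxo15, Gpt2, Herpud1, Jam2 and Slit2. Cdh11 was lower in Pax7-/- stem cells by -0.93 ± 0.17 log2 (adjusted p = 0.011), higher at day 7, and higher at day 21 by 0.69 ± 0.17 log2 (adjusted p = 0.0274). Its difference changed by 2.51 ± 0.24 log2 from day 0 to day 7 (adjusted p = 0.00016), 1 of 107 genes with such a change (0.482%). Ccn1 was lower at day 0 (-0.90 ± 0.19 log2), higher at day 7 and lower again at day 21 (-0.72 ± 0.20 log2), with a change of -1.93 ± 0.29 log2 from day 7 to day 21 (adjusted p = 0.00592), 1 of 202 genes with that change (0.911%). Fbxo15 went the other way, higher at day 0 by 1.17 ± 0.13 log2 and lower at day 7. The fall of Pramel20 was found at day 7, its differences at days 0 and 21 being 0.20 ± 0.37 and -0.15 ± 0.38 log2, and its change from day 0 to day 7 passed the test (adjusted p = 0.025). Its group means at days 0 and 21 were 4.93 to 5.20 in both genotypes. At day 7 they were 7.56 in Pax7+/+ and 4.93 in Pax7-/-, so the other days left little room for a fall. Rrm2 was lower at days 0 and 7 and higher at day 21 (0.77 ± 0.14 log2).

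**Figure D5:**
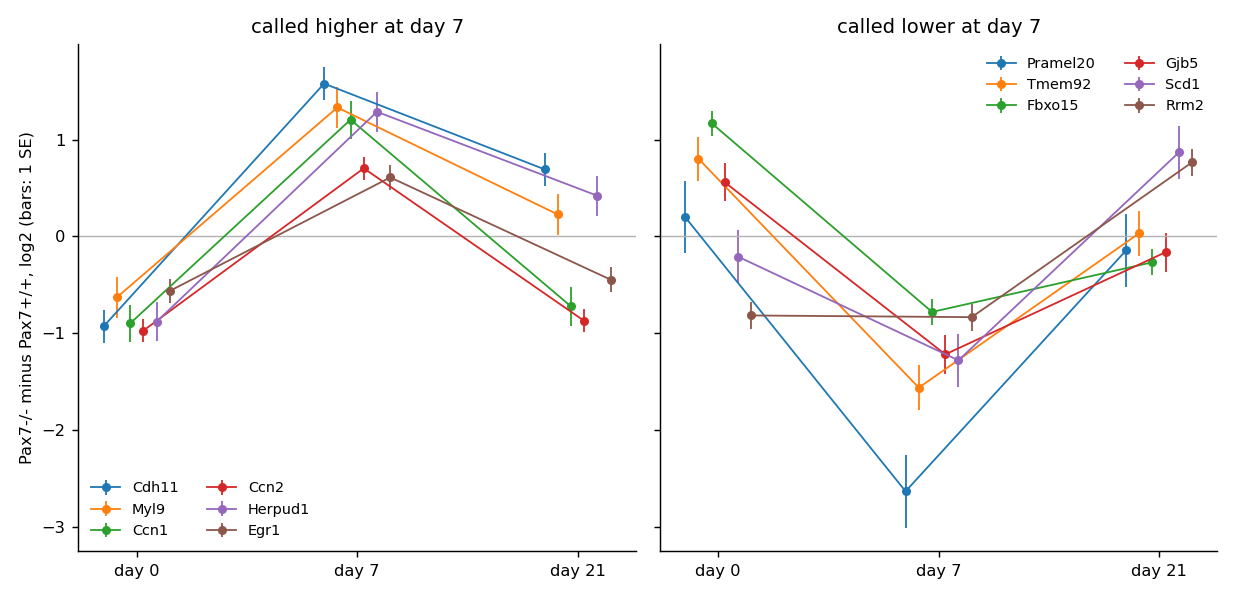
Fitted difference between genotypes (log2, Pax7-/- minus Pax7+/+) at days 0, 7 and 21 for 6 genes called higher (left) and 6 called lower at day 7 (right). Bars are 1 SE, points are offset sideways for legibility, and lines join the values of a gene. Cdh11 moves from -0.93 to 1.58 log2 between days 0 and 7, and Pramel20 stands at -2.63 log2 at day 7.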

How the data were processed

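RNA of 18 samples (6 groups of 3) was hybridised to Affymetrix arrays. The authors deposited 1 log2 intensity for each probe set and array. RMA and Partek are named without version or order in the submitters' processing notes, and whether all arrays were summarised together is not given in the sources used here. Of 41345 probe sets, 23521 carried 1 symbol, 1814 several and 16010 none. Genes with several were represented by the one of highest mean signal (22180 genes, 1082 with several probe sets). Positions come from RefSeq (GRCm38.p6), where 21994 genes matched.

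Arrays with a standard deviation above 1.6 over probe sets were set as wide (8 arrays, 1.79 to 1.85), the others as narrow (10 arrays, 1.37 to 1.45). Correlations were 0.914 to 0.990 within and 0.653 to 0.789 between sets. limma 3.58.1 in R 4.3.3 was fitted to all 18 arrays with 6 group means and the set (11 residual degrees of freedom), without a filter. The number of arrays limits the precision. The code was tested on simulated data.

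Members and the 43 gene lists were chosen with earlier results of these data known. Named were Pax7, the 15 largest rises and falls among called genes of at least 2-fold with the same sign in both sets, and up to 6 called members per list, or up to 2 of smallest p where none was called. The rule gave 13 rises and 15 falls, and 2 rises and 3 falls of predicted genes, pseudogenes or clones were passed over. Other names are said to be chosen after their values were seen, or complete a count. Alternatives covered the set, samples, scaling, filters, probe sets, variance model, threshold, a replicate block and leaving out each array.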

Additional observations from a re-analysis of the deposited data

Results flagged for a closer look

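The difference between genotypes changed with the day for these named genes, by the change of the difference in the same limma fit at a Benjamini-Hochberg adjusted p under 0.05. From day 0 to day 7 it moved up (log2) by 2.81 for Tnc, 2.51 for Cdh11, 2.17 for Herpud1, 2.11 for Ccn1, 1.96 for Myl9, 1.79 for Snai2, 1.68 for Ccn2, 1.61 for Mmp2, 1.35 for S1pr3, 1.17 for Egr1, 1.04 for Atf3 and 0.87 for Mef2a. It moved by -2.83 for Pramel20, -2.37 for Tmem92, -1.95 for Mir669i, -1.95 for Fbxo15, -1.78 for Gjb5 and -1.16 for Cdc5l. From day 7 to day 21 it moved by -1.93 for Ccn1, -1.58 for Ccn2, -1.40 for Atf3 and -1.06 for Egr1, and up by 2.49 for Pramel20, 2.15 for Scd1, 1.72 for Dnmt3b, 1.6 for Rrm2, 1.6 for Tmem92, 1.21 for Cdc5l, 1.11 for Sall4, 0.93 for Srebf2 and 0.92 for Aurka. Tnc, Mef2a, Dnmt3b and Aurka were not called at day 7 itself. In Pax7+/+, Pramel20 and Tmem92 had group means of 7.56 and 6.63 at day 7 but of 4.61 to 5.20 at days 0 and 21, with less room for a fall there. Cdh11, Mmp2 and Herpud1 lie on chromosome 8, whose brighter genes (above the 75th percentile in mean signal) had median differences of 0.15, 0.24 and 0.36 log2 at days 0, 7 and 21. Over the brighter genes of all chromosomes the medians also rose, at -0.046, -0.004 and 0.106 log2.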

How the results depend on the processing

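The number of called genes (139) moved by more than 1.5 times under several alternatives: 0 without the array set, 283 with the set nested in day, 235 on the 6 day 7 arrays alone, 32 on narrow and 410 on wide arrays alone, 241 with quantile normalization of all arrays, and 20 and 319 at adjusted p under 0.01 and 0.1. Leaving out single day 7 arrays gave 21 to 242. Without the genes of chromosomes 8 and 11 it was 78, and with centring per chromosome 89. With the replicate block it was 58, 56 of them among the 139. It kept 24 of the 41 called genes named by rule, with adjusted p-values of 0.114 for Scd1, 0.0742 for Srebf2, 0.0733 for Scd3 and 0.0775 for S1pr3 among the others. Same-numbered arrays of both genotypes had correlations of their deviations of -0.22 to 0.23 over the 3 days and of -0.02 to 0.07 at day 7. Arrays of different number were not compared in this way, so whether same-numbered arrays share a culture or batch was not tested. Median centring, scaling by the SD, quantile normalization within sets, both filters, both other summaries per gene and both variance options gave 126 to 184. Without the array set 20 of the 139 estimates changed sign, none of them among the 41 called genes named by rule. Of those 41, Rpl3 alone reversed under any alternative run (-0.38 with the probe set of largest SD). List medians moved by more than a typical SE without the array set (16 of 43 lists) and, on narrow and on wide arrays alone, for 4 lists each, the 2-cell-like and trophoblast lists in both. The 2-cell-like list also moved under both filters and without Pax7+/+ replicate 1. The causes were not tested.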

Other observations

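Among the 17824 probe sets without a single gene symbol, 93 were called at day 7 in a limma fit of all 41345 probe sets adjusted over all of them, 38 higher and 55 lower in Pax7-/-. Their genes are not named here. Xist, the noncoding RNA of the inactive X chromosome, read 5.86 on both narrow Pax7+/+ arrays and 7.97 on the wide one at day 0, and 4.74 and 4.98 (narrow) and 6.95 (wide) in Pax7-/-. At day 7 it read 3.96 to 4.63 in all 6 arrays.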
